A study of Homo sapiens with 22 samples.

Results

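The 4 HOX gene clusters of the human genome were described through the peaks of chromatin proteins that lay in them. A peak belonged to the HOX set when its summit, the base of highest signal, lay between the first and the last HOX gene end of a cluster or in the 100 kb on either side. This rule took 313 of the 341123 peaks in 12 deposited lists. The clusters hold the 38 HOX genes followed here, all of which were found in the RefSeq table of GRCh38.p14. HOXA2 to HOXA13 (10 genes) span chr7:27100354-27200091, HOXB1 to HOXB13 (10 genes) span chr17:48528526-48728750, HOXC4 to HOXC13 (9 genes) span chr12:53938831-54056030, and HOXD1 to HOXD13 (9 genes) span chr2:176087487-176190907. The members were chosen by position and not by any measured value.

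The lists came from chromatin immunoprecipitation sequencing of hTERT RPE-1, a telomerase-immortalised line of human retinal pigment epithelium, in asynchronous culture. Wild-type cells gave the CTCF and WAPL lists. The other proteins were precipitated from 2 clones in which NIPBL carries the FKBP12(F36V) degron, with the reporter mCherry and a P2A peptide before it in clone A2 and mGreenLantern and P2A in clone D7; the clones are called A2 and D7 below. For RAD21 each clone gave 3 libraries, 1 from cells kept 24 h in DMSO, the solvent, and 1 each from 4 h and 24 h of treatment with dTAGV-1, a small molecule that marks the degron-tagged protein for degradation. PDS5A came from clone D7 after 24 h in DMSO, STAG1 and STAG2 from clone D7 with no treatment in their labels, and HA from clone A2 with no treatment in its label. The labels do not say which protein bears the HA epitope; the peak names in the deposited HA list read HA-NIPBL. Each protein and condition had 1 library, each clone is 1 clone, and no difference below has a replicate check, so no p-value is given. RNA was not measured in these files, so neither the cell line label nor HOX expression was checked.

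HOX genes encode homeodomain transcription factors that set position along the body axis. Within a cluster they lie in the order of their paralogue groups, from the anterior groups with low numbers to the posterior groups with high numbers, and their expression along the body follows that order. Cohesin is a ring complex that holds DNA loops. RAD21 closes the ring, STAG1 or STAG2 is its accessory subunit, NIPBL loads it and drives extrusion, and PDS5A and WAPL regulate its release. CTCF is the zinc-finger protein that stops cohesin on chromatin, and CTCF sites inside HOX clusters are known from mouse embryos to separate active from silent HOX genes.

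Of the 27 HOX promoters in the RefSeq sequence table (20 of the 38 genes, each from 250 bases before to 50 after a transcription start, GRCh38.p14), 2 held a CTCF summit. They are printed because they show where CTCF meets a HOX start directly. The share over all promoters was not computed, so 2 of 27 is not read as high or low. The HOXA10 promoter on the minus strand, chr7:27179812-27180111, holds a match to a CTCF core motif, given in capitals. The motif reads CC, 3 bases of any kind, AG, 2 bases of any kind and GGC. The HOXA3 promoter on the minus strand, chr7:27150901-27151200, holds no match on either strand. It is 1 of several annotated HOXA3 promoters and lies between HOXA6 and HOXA7. The other HOXA3 promoters held no summit of any list.

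HOXA10 promoter: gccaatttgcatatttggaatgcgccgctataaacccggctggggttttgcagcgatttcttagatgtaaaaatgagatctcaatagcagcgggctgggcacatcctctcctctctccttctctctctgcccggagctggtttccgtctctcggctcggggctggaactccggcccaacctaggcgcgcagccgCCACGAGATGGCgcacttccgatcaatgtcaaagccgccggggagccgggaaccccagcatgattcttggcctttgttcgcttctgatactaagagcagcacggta

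HOXA3 promoter: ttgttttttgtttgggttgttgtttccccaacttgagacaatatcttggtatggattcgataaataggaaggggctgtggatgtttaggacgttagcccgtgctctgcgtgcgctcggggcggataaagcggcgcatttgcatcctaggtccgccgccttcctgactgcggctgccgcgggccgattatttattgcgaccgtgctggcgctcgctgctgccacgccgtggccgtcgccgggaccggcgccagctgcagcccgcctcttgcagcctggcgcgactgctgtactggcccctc

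The HOXA10 match, CCACGAGATGGC, lay 56 to 45 bases upstream of the start, and the CTCF summit was 1 bp from it. CTCF had a fold enrichment of 34.1 there and PDS5A 5.40, and none of the 6 RAD21 lists had a peak. At the printed HOXA3 promoter CTCF had a fold enrichment of 54.7. The HOXA3 site had a RAD21 peak in 3 libraries, namely A2 DMSO (7.10), A2 4 h (4.15) and D7 4 h (7.52), and a PDS5A peak at 6.09. The motif, searched on both strands, lies in 10.6% of the 35116 promoters of the table (3715) and in 4 of the 27 HOX promoters. The other matches were CCCTGAGGTGGC at HOXA11, CCGAGAGGAGGC at HOXD10 and CCGAGAGCAGGC at HOXD1, with the nearest CTCF summit 5490, 2393 and 17363 bp away. A match is a string of letters, not a shown binding site.

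Fold enrichment is the authors' value for the summit of a peak over its local background. It ranks peaks within 1 list; values of several lists are set side by side below without reading a change from them. The libraries differed in depth. The background pileup (mean fragments per base) recovered from the lists was 13.4 for CTCF and 1.77 to 4.05 for the other 10 lists that allowed it, and the A2 DMSO library (1.87) was shallower than the A2 libraries at 4 h (3.16) and 24 h (2.83). Clone D7 had 3.00 in DMSO, 4.05 at 4 h and 3.07 at 24 h. No depth could be recovered for HA.

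CTCF had 49 peaks in the HOX windows, with 8 in HOXA, 21 in HOXB, 7 in HOXC and 13 in HOXD. RAD21 in A2 had 32, 26 and 26 HOX peaks in the order DMSO, 4 h, 24 h, and 31, 33 and 25 in D7. STAG1 had 29, STAG2 18, PDS5A 39, WAPL 5 and HA 0. The full WAPL and HA lists were short, at 2667 and 230 peaks, so the 0 for HA is not read as absence from the clusters. PDS5A, the regulator, thus had more HOX peaks than any RAD21 list, although the full PDS5A list (28887 peaks) was shorter than both DMSO RAD21 lists (39713 in A2 and 37566 in D7). With only peaks of a −log10 q of at least 10 this excess was gone, since PDS5A and RAD21 in A2 DMSO, D7 DMSO and D7 4 h each had 29. HOXB held the largest number of peaks in each of the 11 lists with a HOX peak, and its window is also the longest, at 400.2 kb against 299.7 kb for HOXA, 317.2 kb for HOXC and 303.4 kb for HOXD.

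Peaks were denser in the HOX gene spans, gene bodies included, than in the flanks. CTCF had 6.15 peaks per 100 kb in the gene spans (32 peaks in 520.6 kb) and 2.13 in the flanks (17 in 800.0 kb). RAD21 in A2 in DMSO had 4.03 and 1.38, and PDS5A 5.38 and 1.38. All 5 WAPL peaks lay in the spans. HOXC was the extreme case, since all 7 of its CTCF peaks lay in the span from HOXC13 to HOXC4. None of the 12 lists had a peak in either 100 kb flank of HOXC. The longest stretches with no peak in any list were 135.6 kb from the outer edge of the HOXA window past HOXA2 and HOXA4, 122.7 kb on the HOXC4 side of HOXC and 122.6 kb on the HOXC13 side.

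**Figure D1:**
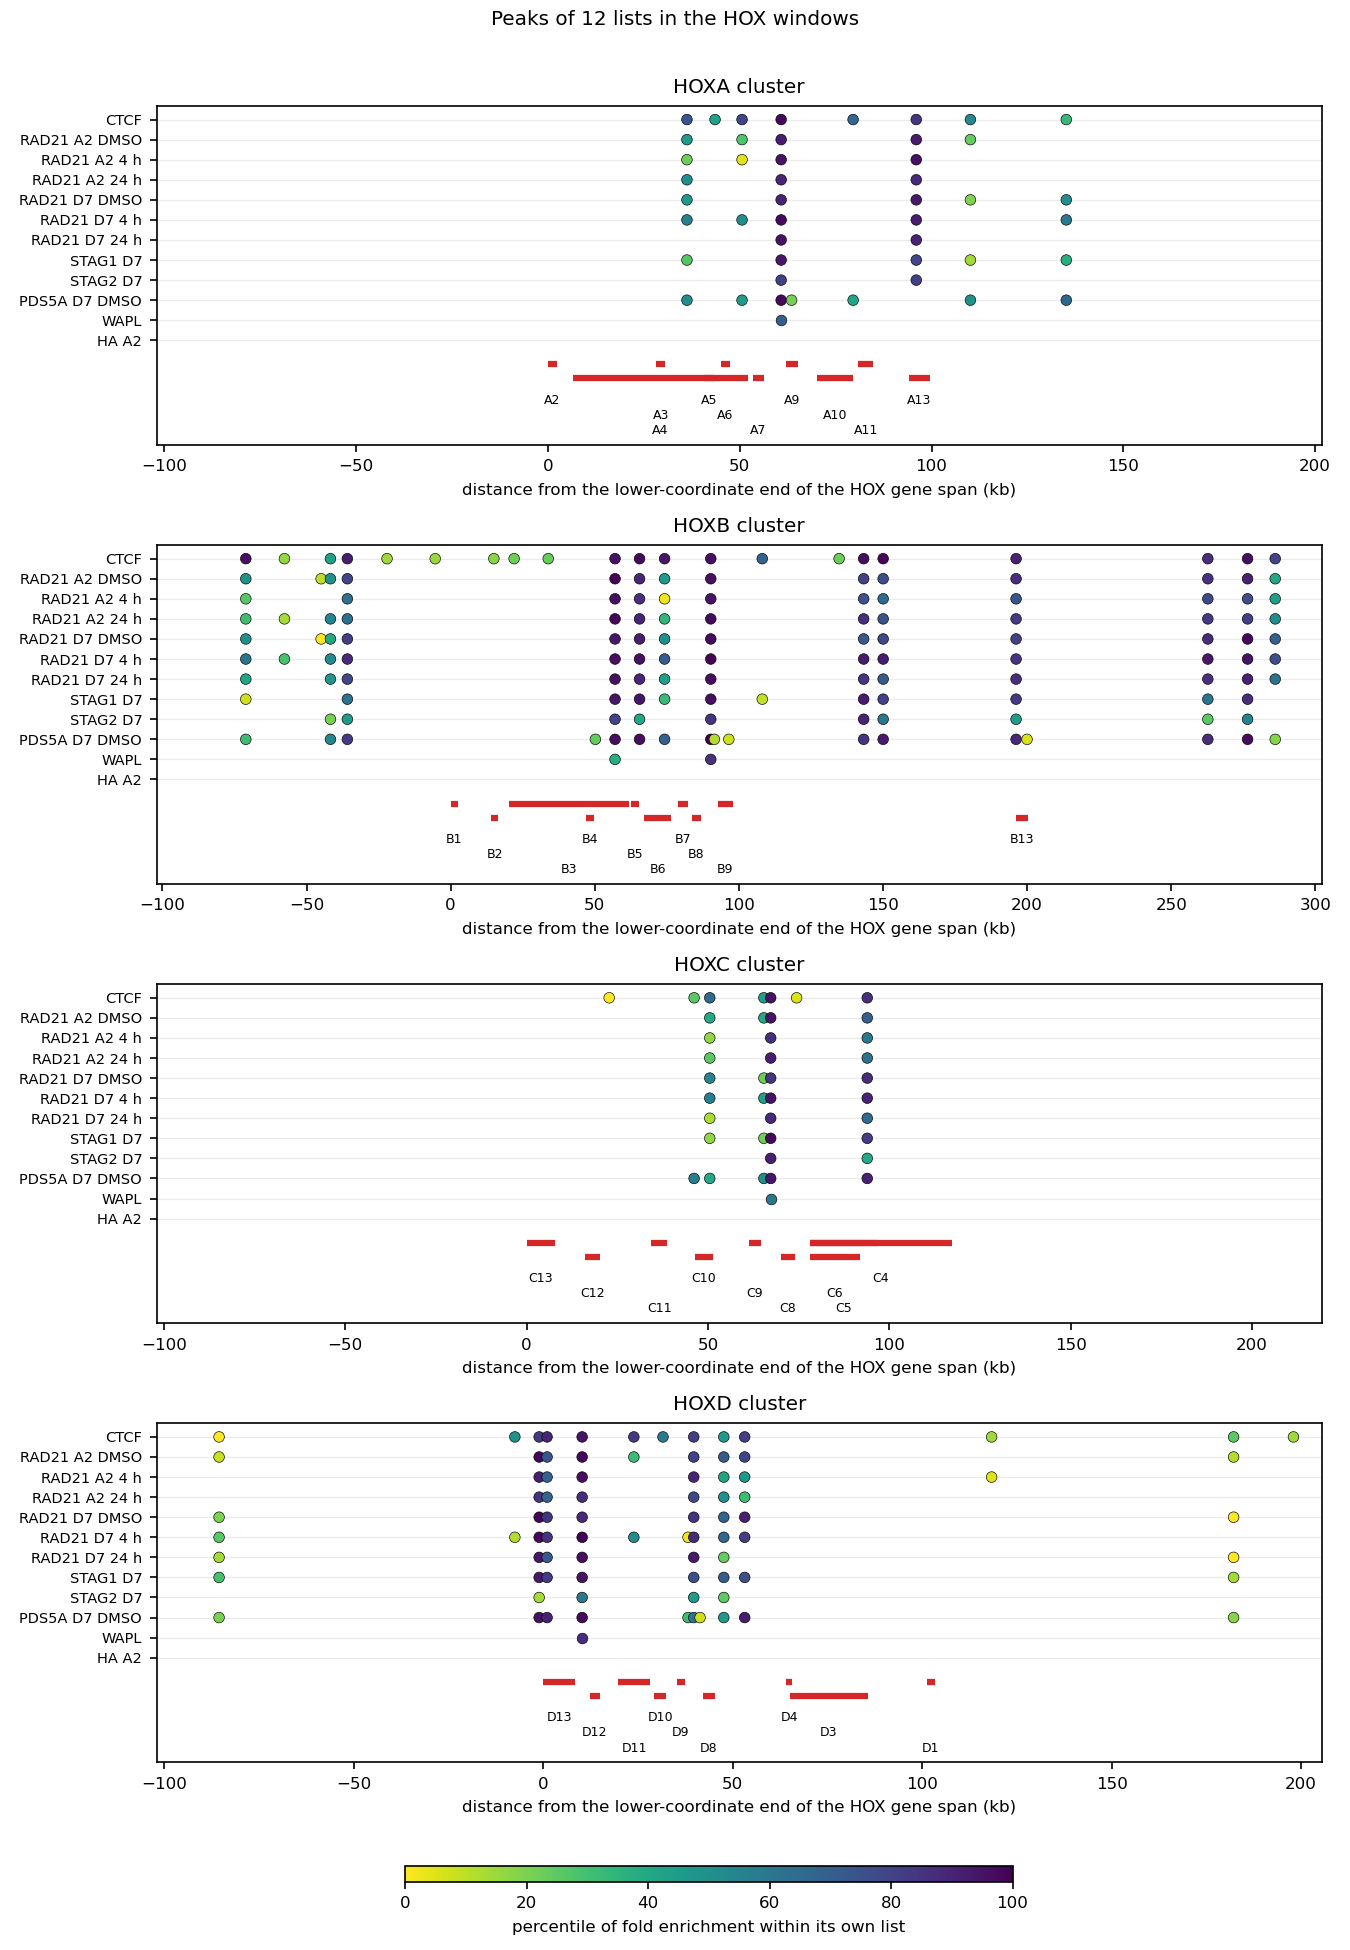
Peaks of the 12 lists in the 4 HOX windows. The x axis is the distance in kb from the lower-coordinate end of the HOX gene span; each row is 1 list, each dot is 1 peak, its colour is the percentile of its fold enrichment within its own list, and red bars are HOX genes. Dark columns that run through nearly all rows are CTCF sites with cohesin in every RAD21 library, and the stretch at HOXA2, HOXA4, HOXB1 to HOXB4 and HOXD4 to HOXD1 is almost free of dots.

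Overlapping peaks of all lists were merged into 57 sites, 39 in the gene spans and 18 in the flanks. CTCF and RAD21 in all 6 libraries shared 22 sites, 16 of them in the spans. RAD21 had a peak in 1 to 5 libraries at 15 further sites. CTCF had no RAD21 peak in any library at 14 sites, and 8 sites had no CTCF peak, 2 of them with RAD21. By cluster, the 22 sites with RAD21 throughout were 2 in HOXA, 12 in HOXB, 3 in HOXC and 5 in HOXD.

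In HOXA the strongest site lay between HOXA7 and HOXA9 (chr7:27160193-27161696), in no gene, 4480 bp from HOXA7 and 1283 bp from HOXA9. Its fold enrichment was 119 for CTCF and 54.5, 50.3 and 45.4 for RAD21 in A2 (DMSO, 4 h, 24 h). RAD21 in D7 had 43.1, 102 and 65.1 there, and STAG1 had 54.2, STAG2 21.3, PDS5A 90.1 and WAPL 9.47. No other HOXA site was in all 10 lists other than WAPL and HA. Inside HOXA13, a posterior gene of limb and genital development, a site (chr7:27195806-27196921) had CTCF at 65.2, RAD21 in all 6 libraries (41.8 to 55.7), STAG1 at 26.6 and STAG2 at 21.6. PDS5A had no peak there, which made the HOXA13 site the only one of the 22 without PDS5A. The anterior end of HOXA was occupied more weakly. A site in the long HOXA3 transcript, between HOXA4 and HOXA5 (chr7:27135904-27137013), had CTCF at 46.0 and RAD21 at 6.61 to 11.8 in 5 libraries but no peak in D7 at 24 h. A further CTCF peak beside HOXA5 (chr7:27143631-27144196, 11.1) had no other protein.

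HOXB carried a row of 7 sites with RAD21 in all 6 libraries between HOXB4 and HOXB13. The site between HOXB4 and HOXB5, inside the long HOXB3 transcript (chr17:48584858-48586267), had CTCF at 101 and RAD21 at 92.4, 53.6 and 90.8 in A2 and 54.2, 81.9 and 67.3 in D7. In the A2 DMSO and A2 24 h lists it held the highest HOX fold. Between HOXB8 and HOXB9 (chr17:48617713-48619392), CTCF had 106, RAD21 67.8, 51.5 and 81.3 in A2 and 68.7, 141 and 71.5 in D7. The PDS5A peak of this HOXB8 to HOXB9 site, at 195, ranked 29 among all 28887 PDS5A peaks. STAG1 had 66.9 there, STAG2 23.7 and WAPL 11.3.

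The remaining HOXB sites differed in how CTCF and RAD21 ranked. Between HOXB5 and HOXB6 (chr17:48593151-48594603) CTCF had 116 and RAD21 34.7 to 74.8. In HOXB6 (chr17:48602054-48603431) CTCF had 95.1, at percentile 94.1 of its list, while RAD21 ran only from 3.62 to 16.0, from percentile 2.40 (A2 4 h) to 70.8 (D7 4 h). Such a gap also appeared 71089 bp outside HOXB1 (chr17:48456795-48457981), where CTCF had 104 and RAD21 6.61 to 12.9. Strong CTCF enrichment in the HOX windows was therefore not always met by strong RAD21 enrichment. In the gene-poor stretch between HOXB9 and HOXB13, sites at chr17:48671272-48672358 and chr17:48677947-48679229 in LINC02086 had CTCF at 108 and 122, the latter the highest CTCF fold of the HOX set, and RAD21 at 18.3 to 54.8. Of 2 further CTCF sites in this stretch, one in LINC03057 (chr17:48636227-48637103) had CTCF at 37.8, STAG1 at 3.78 and no RAD21 peak, and one in LINC02086 (chr17:48663073-48663571, 5.55) had no other protein. A site 62 bp from HOXB13 (chr17:48723852-48725263), in PRAC2 and over the MIR3185 hairpin, had CTCF at 81.9 and RAD21 at 22.9 to 42.3. In the flank, a site in TTLL6 (chr17:48804543-48805707) had CTCF at 106 and RAD21 at 24.8 to 75.1.

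HOXC had 3 sites with RAD21 in all 6 libraries. The strongest lay between HOXC9 and HOXC8 (chr12:54004926-54006989), with CTCF at 101, RAD21 at 61.0, 34.3 and 51.5 in A2 and 33.3, 71.5 and 41.4 in D7. STAG1 (79.0) and STAG2 (29.7) both had their highest HOX fold at this HOXC9 to HOXC8 site, and PDS5A had 62.7 and WAPL 8.53. A site inside HOXC4 and HOXC5, whose annotated transcripts overlap (chr12:54032153-54033346), had CTCF at 69.0 and RAD21 at 15.5 to 45.9. The third lay in HOXC10 (chr12:53988910-53989707), with CTCF at 34.0 and RAD21 at 4.76 to 11.2. A weak neighbour next to HOXC9 (chr12:54003961-54004575, CTCF 12.1) had RAD21 in the A2 DMSO (9.69), D7 DMSO (4.93) and D7 4 h (6.20) libraries, and in neither clone at 24 h. CTCF peaks at HOXC12 (2.54), HOXC10 (6.05) and HOXC8 (3.62) had no RAD21 peak in any library.

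HOXD had its highest RAD21 folds at the posterior end. A site 1078 bp outside HOXD13, a gene of digit development (chr2:176085659-176086886), had CTCF at only 62.2 but RAD21 at 88.7, 42.7 and 35.4 in A2 and 87.9, 101 and 58.6 in D7. In D7 in DMSO this was the highest HOX fold. STAG1 had 53.2 at this HOXD13 site (percentile 93.7 of its list) and STAG2 5.04 (percentile 13.5), so the accessory subunits ranked it very differently. A lower STAG2 rank was not particular to it. The median percentile of all HOX peaks was 76.3 for STAG1 and 50.7 for STAG2. The HOXB5 to HOXB6 site stood at percentiles 94.4 and 40.4. Between HOXD13 and HOXD12 (chr2:176096923-176098589) CTCF had 100, RAD21 80.3, 56.6 and 38.8 in A2 and 40.3, 159 and 69.0 in D7, PDS5A 89.0 and WAPL 11.6. The value of 159 was the highest RAD21 fold of the HOX set. A site inside HOXD13 (chr2:176087918-176088957) had CTCF at 79.8, RAD21 at 19.2 to 33.1 and no STAG2 peak. In HOXD11 (chr2:176110835-176111878) CTCF reached 61.7, yet only the A2 DMSO (7.88) and D7 4 h (7.72) libraries had a RAD21 peak. The CTCF peak in HOXD10 (chr2:176118717-176119499, 23.7) had no other protein.

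The interval between the group 9 gene and its lower-numbered neighbour was alike in the 4 clusters. It measures 5.76 kb between HOXA9 and HOXA7, 5.86 kb between HOXB9 and HOXB8, 5.65 kb between HOXC9 and HOXC8 and 4.77 kb between HOXD9 and HOXD8. Each of these 4 intervals held exactly 1 site with CTCF and RAD21 in all 6 libraries. In HOXD it was chr2:176126702-176127765, with CTCF at 58.7, RAD21 at 33.6, 39.1 and 26.7 in A2 and 34.2, 39.4 and 52.2 in D7, STAG1 at 23.4, STAG2 at 9.68 and PDS5A at 10.1. WAPL had a peak at the HOXA, HOXB and HOXC sites and none at the HOXD one. This interval was singled out after the values had been seen, and the genes of the 4 clusters are paralogues, so the 4 sites are not independent observations.

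WAPL, which opens the cohesin ring for release, had 5 peaks in the windows. Each of these 5 sites also had a peak in every other list but HA. Over the whole WAPL list, 99.2% of peaks overlapped CTCF, 99.1% RAD21 in A2 DMSO and 98.5% RAD21 in D7 DMSO. Such overlap was therefore not particular to the HOX windows. Shares of all WAPL peaks with the other lists were not computed. A further 11 sites had a peak in every list but WAPL and HA. The 5 WAPL sites lay between HOXA7 and HOXA9, HOXB4 and HOXB5, HOXB8 and HOXB9, HOXC9 and HOXC8, and HOXD13 and HOXD12. CTCF fold at these WAPL sites was 100 to 119, against 12.8 to 122 (median 79.8) at the other 17 sites with RAD21 in all 6 libraries, of which 5 exceeded the lowest WAPL site. RAD21 in A2 in DMSO had 54.5 to 92.4 at the WAPL sites and 9.72 to 88.7 (median 32.7) at the others. PDS5A had 62.7 to 195 and 3.62 to 86.4 (median 31.4, 16 sites). The ranges overlapped in each of these lists. Of the 49 CTCF peaks, 5 (10.2%, 95% Wilson interval 4.44 to 21.8) had a WAPL peak, against 4.46% of all CTCF peaks, a value inside the interval. All Wilson intervals here cover counting error only, and neighbouring peaks of a library are not independent.

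The anterior stretches, ended at HOXA4, HOXB4 and HOXD4, were nearly bare. The stretches from HOXA2 to HOXA4, HOXB1 to HOXB4 and HOXD4 to HOXD1, 119.6 kb in all, had 0 RAD21 peaks in each of the 6 libraries and 0 peaks of STAG1, STAG2, PDS5A and WAPL. CTCF had 3 peaks there, in HOXB2 (4.91) and in HOXB3 (5.49 and 5.68), each below the CTCF list median of 15.6. The remaining 283.8 kb of the 3 spans had 22 CTCF peaks and 13 to 18 RAD21 peaks a library. This boundary was set after the map had been seen. No density over the whole genome was computed. The HOX flanks had 1.38 RAD21 peaks (A2 DMSO) and 2.13 CTCF peaks per 100 kb, so few peaks would be expected in 119.6 kb. HOXC, which has no gene of groups 1 to 3 and whose HOXC4 transcript runs through the neighbouring genes, was not counted. The long transcripts of HOXA3 and HOXB3 were not followed past HOXA4 and HOXB4, and both hold RAD21 peaks beyond those genes. HOXC4 holds RAD21 as well.

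By gene, 11 of the 38 HOX genes held a CTCF summit within their annotated ends and 10 a PDS5A summit. A RAD21 summit was held by 9 in any library and by 8 in both DMSO libraries, while 24 genes held no summit of any list. The shares over all genes were not computed, so these counts are not read as high or low. The genes with RAD21 were HOXA3, HOXA13, HOXB3, HOXB6, HOXC4, HOXC5, HOXC10, HOXD11 and HOXD13. Of the 22 sites with RAD21 in all libraries, 6 lay in a HOX gene, 10 lay between HOX genes within the spans and 6 in the flanks. Exons and introns were not analysed here. Of 8 microRNA hairpins in the windows, MIR3185 was covered by a site, MIR615 lay 604 bp and MIR10A 823 bp from the nearest site, and the other 5 were 2031 to 16650 bp away.

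CTCF fold and the number of RAD21 libraries at a site went together. At the 14 CTCF sites with no RAD21 peak the CTCF fold had a median of 5.52 (2.54 to 37.8). The 13 CTCF sites with RAD21 in 1 to 5 libraries had a median of 12.1 (2.77 to 61.7), and the 22 with RAD21 in all 6 had 90.0 (12.8 to 122). The ranges overlap, and the site between HOXD8 and HOXD4 at chr2:176134747-176135937 is the low extreme of the last group, with CTCF at 12.8. By library, RAD21 overlapped 31 of the 49 CTCF peaks in A2 DMSO (63.3%, all CTCF peaks 57.4%), 26 in A2 4 h (53.1%, 42.2%) and 26 in A2 24 h (53.1%, 43.6%). The D7 counts were 30 in DMSO (61.2%, 52.8%), 32 at 4 h (65.3%, 51.6%) and 25 at 24 h (51.0%, 45.9%). Of the 49 CTCF peaks, 22 (44.9%, 31.9 to 58.7) were met by RAD21 in all 6 libraries, against 31.7% of all CTCF peaks, and 35 (71.4%, 57.6 to 82.2) by RAD21 in any library, against 67.9%.

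**Figure D2:**
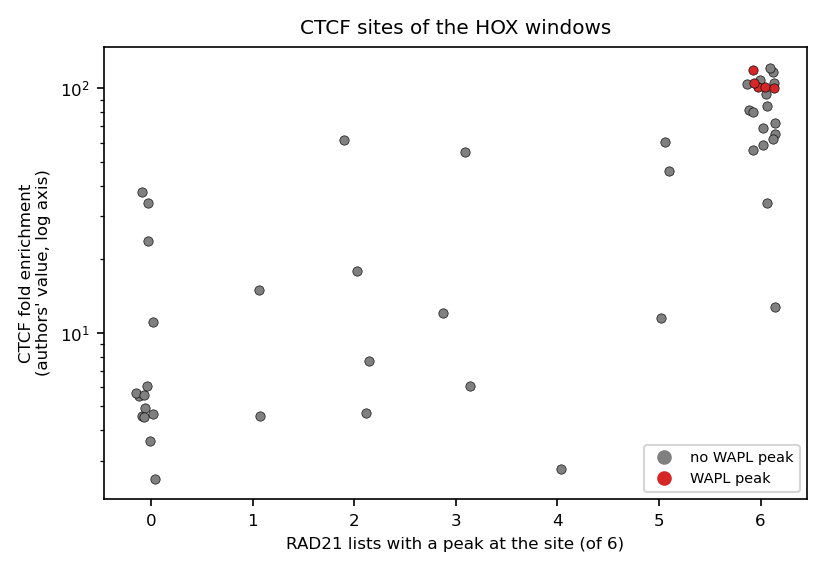
CTCF fold enrichment (y axis, log scale) of the 49 CTCF sites in the HOX windows by the number of RAD21 libraries with a peak at the site (x axis, 0 to 6, spread sideways for legibility). Each dot is 1 site; the 5 red dots are the sites with a WAPL peak, all at 6 libraries and at a CTCF fold of 100 to 119.

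Read the other way, nearly every RAD21 peak of the HOX windows lay on CTCF. In DMSO, 31 of 32 RAD21 peaks of A2 (96.9%, 84.3 to 99.4) and 30 of 31 of D7 (96.8%, 83.8 to 99.4) overlapped a wild-type CTCF peak, against 85.9% and 83.1% of all RAD21 peaks of these libraries. In dTAGV-1 the counts were 26 of 26 and 26 of 26 in A2 (4 h and 24 h; all peaks 97.9% and 90.7%) and 32 of 33 and 25 of 25 in D7 (all peaks 78.2% and 90.7%). The RAD21 summits lay a median of 21 to 27.5 bp from the CTCF summit. Only 2 HOX sites had RAD21 without CTCF. One was 44958 bp outside HOXB1 (chr17:48483440-48484122), called in both DMSO libraries (4.59 in A2 and 2.61 in D7), and the second was between HOXD9 and HOXD8 (chr2:176125223-176125850), called at 2.77 in D7 at 4 h.

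How RAD21 in the HOX windows responded to NIPBL degradation was followed through the DMSO RAD21 peaks that a peak of the dTAGV-1 library overlapped by at least 1 bp. The NIPBL level itself is not in these files. Clone A2 kept 25 of 32 peaks (78.1%, 61.2 to 89.0) at 4 h, against 62.2% of all peaks, and 25 of 32 at 24 h, against 64%. In D7, 28 of 31 (90.3%, 75.1 to 96.7) were overlapped at 4 h, against 80%, and 25 of 31 (80.6%, 63.7 to 90.8) at 24 h, against 68.8%. All 4 HOX shares were above the share for all peaks, and each of those lay inside the HOX interval. In DMSO, the D7 list overlapped 30 of the 32 HOX peaks of A2 (93.8%, all peaks 80.5%), and the A2 list 30 of the 31 of D7 (96.8%, all peaks 84.4%). Within dTAGV-1, the 24 h list overlapped 24 of the 26 peaks of the 4 h list in A2 (92.3%, all peaks 83.7%) and 24 of 33 in D7 (72.7%, all peaks 65.2%).

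**Figure D3:**
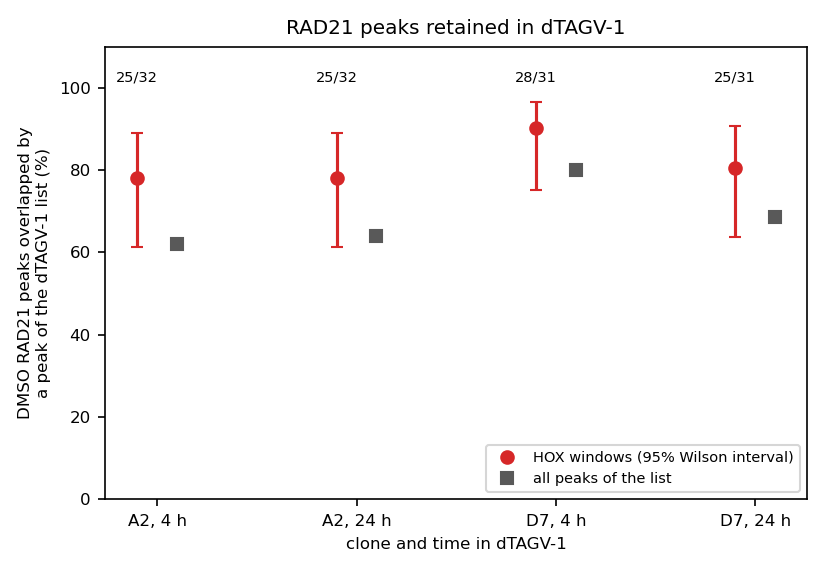
Share of DMSO RAD21 peaks (y axis, percent) overlapped by a RAD21 peak after 4 h or 24 h in dTAGV-1, for each clone (x axis). Red dots are the HOX windows with 95% Wilson intervals and the counts above them; grey squares are all peaks of the library. All 4 red dots stand above the grey square beside them, and all 4 intervals reach down to it.

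HOX peaks were on average high in their lists, with 19 of 32 A2 and 23 of 31 D7 DMSO peaks in the upper 50% of the list by fold, and the overlap split along that line. Of the upper peaks, 19 of 19 were overlapped in A2 at both 4 h and 24 h (all peaks 95.5% and 88.7%), and in D7 23 of 23 at 4 h and 21 of 23 at 24 h (97.8% and 94.1%). Of the lower peaks, 6 of 13 were overlapped in A2 at each time (28.9% and 39.4%), and in D7 5 of 8 at 4 h and 4 of 8 at 24 h (62.2% and 43.4%). In the gene spans 19 of 21 A2 peaks and 19 of 19 D7 peaks were overlapped at 4 h, and in the flanks 6 of 11 and 9 of 12. At 24 h the spans had 18 of 21 (85.7%) and 16 of 19 (84.2%) and the flanks 7 of 11 (63.6%) and 9 of 12 (75%), and the intervals of span and flank overlapped in each clone at each time.

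The number of RAD21 peaks in the HOX windows, as a ratio to DMSO, was 0.813 at both 4 h and 24 h in A2 (all peaks 0.649 and 0.720). The D7 ratios were 1.06 (4 h) and 0.806 (24 h), beside 1.04 and 0.802 for all peaks. The clones therefore stood on opposite sides of 1 at 4 h, with 32 peaks in DMSO against 26 in A2 and 31 against 33 in D7. With both lists cut to equal length the 4 h ratios were 1.00 in A2 and 1.03 in D7, and with a −log10 q of at least 10 they were 0.793 and 1.00, so this contrast did not hold in either setting. In A2 both treated libraries had fewer peaks and more background pileup than DMSO, and in D7 the 4 h library had the most of both. The part of depth in these ratios was not tested.

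**Figure D4:**
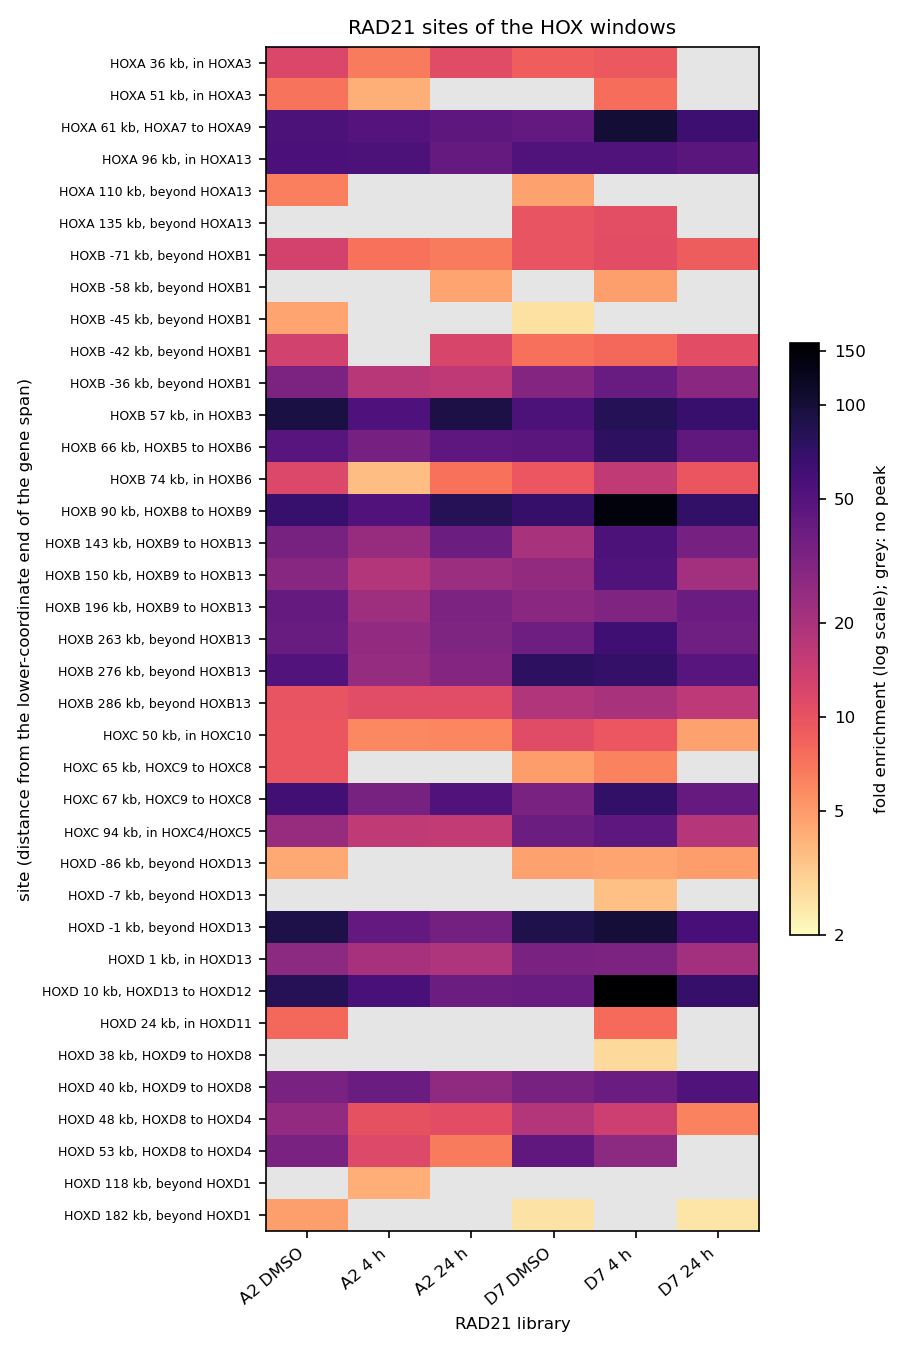
Fold enrichment (colour, log scale) of the 37 HOX sites with a RAD21 peak in any of the 6 libraries (columns). Rows are sites in genome order, named by cluster, distance in kb from the lower-coordinate end of the gene span and neighbouring HOX genes, and grey means no peak. The 22 rows without grey are the sites called in all 6 libraries.

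The sites where the call was lost were mostly weak. In A2, the 7 DMSO peaks not overlapped at 4 h had folds of 4.43 to 13.2 and pileups of 13 to 37 fragments, and the 7 at 24 h had folds of 4.43 to 9.69 and pileups of 13 to 31. In D7 the 3 at 4 h had folds of 2.57 to 4.66. The A2 peak of fold 13.2 not overlapped at 4 h lay 41715 bp outside HOXB1 (chr17:48486488-48487144). This site was called again in A2 at 24 h, at 12.2. In D7 it was called at 7.39, 7.96 and 10.7 (DMSO, 4 h, 24 h). Only 2 sites were called in both DMSO libraries and in none of the 4 dTAGV-1 libraries, one 10410 bp outside HOXA13 (chr7:27210130-27210987, RAD21 6.47 and 4.66, CTCF 17.9) and the CTCF-free site outside HOXB1 given above. The 6 D7 peaks not overlapped at 24 h included the site between HOXA4 and HOXA5 (8.75), the weak neighbour next to HOXC9 (4.93) and a site 35405 bp outside HOXA13 (9.93). In HOXD11 and at the HOXA3 promoter the call in A2 in DMSO was absent at 24 h, and D7, without a call in DMSO, had one at 4 h.

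Gains were weak as well. Peaks of a treated library with no DMSO peak of the same clone numbered 1 of 26 in A2 at 4 h (4.18) and 1 of 26 at 24 h (4.59), and in D7 5 of 33 at 4 h (2.77 to 7.72) and 0 of 25 at 24 h. Over all peaks, 96.4%, 89.2%, 77.3% and 86.5% of these treated lists overlapped a DMSO peak. Sites called only in dTAGV-1 were 4: 57678 bp outside HOXB1 (chr17:48470573-48471108), called in A2 at 24 h and D7 at 4 h, in EVX2 (chr2:176079670-176080234), between HOXD9 and HOXD8, and 14890 bp outside HOXD1 (chr2:176205551-176205995).

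**Figure D5:**
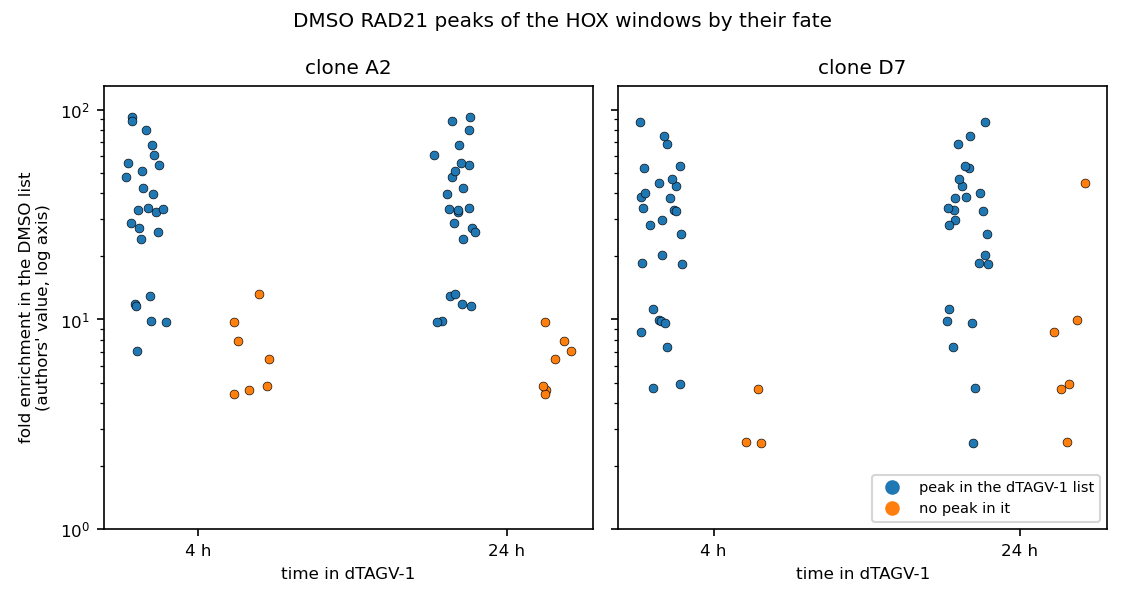
Fold enrichment in DMSO (y axis, log scale) of the RAD21 peaks in the HOX windows, split by whether the library at 4 h or 24 h in dTAGV-1 (x axis, spread sideways for legibility) has a peak there (blue) or not (orange). In A2 (left) all orange dots are at 13.2 or below; in D7 (right) the orange dot at 44.6 at 24 h is the site between HOXD8 and HOXD4.

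The exception was a strong site between HOXD8 and HOXD4 (chr2:176140192-176141249), 7947 bp from HOXD8 and 10908 bp from HOXD4, at the anterior edge of the occupied part of HOXD. In D7 in DMSO its RAD21 peak had a fold of 44.6, a pileup of 275 fragments and percentile 90.8 of its list. At 4 h the fold was 27.6 and the pileup 174, and at 24 h no peak was called, the nearest summit lying 5542 bp away. In A2 the folds were 33.2 in DMSO, 11.4 at 4 h and 6.69 at 24 h, with pileups of 122, 99 and 84, so a peak was still called at 24 h. CTCF had 60.3 at this site, STAG1 23.6 and PDS5A 51.7, and STAG2 and WAPL had no peak. Of the 3756 D7 DMSO peaks in the upper 10% by fold, 1 (0.0266%) was not overlapped at 24 h, and it was this HOXD8 to HOXD4 site. In A2, 61 of 3971 (1.54%) of the upper 10% were not overlapped at 24 h. The peak numbers in the D7 24 h list run without a gap, so no numbered peak is missing from it. The limit of 10% was set after the site had been seen.

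Within each library the pileup of this site was set against the median pileup of the 21 other HOX sites with RAD21 throughout, its neighbour left out. For A2 it was 80.3% of that median (DMSO), 45.0% (4 h) and 25.5% (24 h), and for D7 122% (DMSO) and 55.6% (4 h). In both clones the 4 h value was below the DMSO value, and at 24 h the A2 value was lower still while D7 had no peak. The neighbouring site at HOXD-AS2 (chr2:176134747-176135937), 2429 bp from HOXD8, stood at 56.6%, 28.6% and 17.3% in A2 and at 39.8%, 22.0% and 21.3% in D7. Both sites of the HOXD8 to HOXD4 interval thus stood lower against this median in dTAGV-1 than in DMSO wherever a peak was called, in 1 library per condition. So did 12 or 13 of the 21 other sites in each pair, and 7 of them in all 4 pairs, among them the sites in HOXC10, in HOXB6 and inside HOXD13. In size, the value at 4 h divided by that in DMSO was 0.561 (A2) and 0.457 (D7) at the strong site and 0.506 and 0.554 at HOXD-AS2, against 0.658 to 1.57 (A2) and 0.566 to 1.52 (D7) at the others. At 24 h the quotient in A2 was 0.318 and 0.306, against 0.620 to 1.48. In D7 at 24 h HOXD-AS2 had 0.536, inside the range of the others (0.402 to 1.81). These 2 sites were chosen after their values had been seen. The others were kept only if called in every RAD21 library, so a site that fell enough to lose its call could not be among them. The strong site does not meet that condition, and its place below their range is in part set by it.

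The cohesin subunits divided the HOX sites unevenly. All 29 STAG1 peaks (all peaks 87.7%) and all 18 STAG2 peaks (85.4%) overlapped CTCF. Of the 49 CTCF peaks, STAG1 overlapped 29 (59.2%, 45.2 to 71.8; all CTCF peaks 40%) and STAG2 18 (36.7%, 24.7 to 50.7; 32.3%). The D7 DMSO RAD21 list overlapped 28 of the 29 STAG1 peaks (all peaks 93.6%) and 18 of the 18 STAG2 peaks (84%), and 28 of its own 31 peaks overlapped STAG1 (66.9%) and 18 STAG2 (50%). STAG2 lay almost wholly within STAG1: 17 of 18 STAG2 peaks (94.4%, 74.2 to 99.0) overlapped a STAG1 peak, against 69.6% of all, and 17 of 29 STAG1 peaks (58.6%, 40.7 to 74.5) overlapped a STAG2 peak, against 58%. The 12 sites with STAG1 and no STAG2 had a median STAG1 fold of 5.64 (3.47 to 30.7), and the 17 with both 38.0 (13.9 to 79.0). Among the 12, the 4 with the highest CTCF fold lay outside HOXB1 (71089 bp), in HOXB6, inside HOXD13 and between HOXD8 and HOXD4 (chr2:176140192-176141249), with STAG1 at 3.47, 6.79, 30.7 and 23.6. The 1 site with STAG2 and no STAG1 lay 41715 bp outside HOXB1 (chr17:48486488-48487144), with a STAG2 fold of 6.00. None of the 10 STAG1 peaks in the lower 50% of its list overlapped STAG2 (Wilson upper bound 27.8%), against 29.2% of all such peaks. Of the upper STAG1 peaks 17 of 19 did (89.5%, 68.6 to 97.1), against 86.8%. Upper STAG2 peaks met STAG1 in 9 of 9 cases (70.1 to 100), against 84.5% of all such peaks. For lower STAG2 peaks it was 8 of 9 (88.9%, 56.5 to 98.0), against 54.7%. The STAG1 library was shallower (background pileup 1.77) than the STAG2 library (3.14), and the part of depth was not tested.

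PDS5A, which binds cohesin and controls its time on chromatin, met the HOX sites often. Of the 49 CTCF peaks 32 (65.3%, 51.3 to 77.1) overlapped a PDS5A peak, against 36.6% of all CTCF peaks. Of the 31 D7 DMSO RAD21 peaks 29 (93.5%, 79.3 to 98.2) did, against 55.8%. The values for all peaks lay outside both intervals. Among peaks in the upper 50% by fold the shares were 25 of 29 for CTCF (86.2%, 69.4 to 94.5; all such peaks 57.8%) and 22 of 23 for RAD21 (95.7%, 79.0 to 99.2; all such peaks 77%). For comparison, the upper CTCF peaks met RAD21 in D7 in DMSO in 24 of 29 cases (82.8%), against 82.5% of all such peaks. For upper CTCF peaks the value for all thus lay outside the HOX interval for PDS5A and inside it (65.5 to 92.4) for RAD21, in 1 library each. Without the split, STAG1 was above all peaks too. Its HOX intervals were 45.2 to 71.8 for CTCF peaks (all 40%) and 75.1 to 96.7 for D7 DMSO RAD21 peaks (all 66.9%). Of upper RAD21 peaks, 22 of 23 met STAG1 (79.0 to 99.2), with the value for all such peaks (92.2%) inside. Fold was not matched within the upper 50%, and 13 HOX CTCF peaks were in the upper 10%.

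Turned round, 29 of 39 PDS5A peaks (74.4%, 58.9 to 85.4) overlapped RAD21 of the same clone and treatment, against 72.7% of all PDS5A peaks, and 32 of 39 (82.1%, 67.3 to 91.0) overlapped CTCF, against 74.9%. PDS5A stood without RAD21 in any of the 6 libraries at 8 of its 39 HOX peaks (20.5%), against 21.5% of all. All 8 lay in the gene spans. At 6 of them no other protein had a peak: in HOXA9 (3.74), beside HOXB4 within HOXB3 (3.91), between HOXB8 and HOXB9 (3.25), in HOXB9 (3.08), in HOXB13 (2.98) and between HOXD9 and HOXD8 (3.04). These are low folds in the PDS5A list, whose median is 6.89. The other 2 had CTCF too, at the HOXA10 promoter and 151 bp from HOXC10 (chr12:53984577-53985214, PDS5A 8.65).

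The genes of HOX partners and regulators gave a view outside the clusters. The list held the TALE homeodomain partners PBX2 to PBX4, MEIS1 to MEIS3, PKNOX1 and PKNOX2, and the caudal-type HOX regulators CDX1, CDX2 and CDX4, each gene with 5 kb on either side. Together these 11 genes had 19 RAD21 peaks in A2 in DMSO, of which 9 (47.4%, 27.3 to 68.3) were overlapped at 4 h and 8 (42.1%, 23.1 to 63.7) at 24 h, against 62.2% and 64% of all peaks. In D7 they had 21, of which 16 (76.2%, 54.9 to 89.4) were overlapped at 4 h and 9 (42.9%, 24.5 to 63.5) at 24 h, against 80% and 68.8%. The value for all peaks lay inside both intervals at 4 h and above both at 24 h, in A2 only just (64% against an upper bound of 63.7). The DMSO fold of these peaks was not compared with that of all peaks, so the part of fold was not tested. PBX3 had 4 A2 DMSO peaks with 0 overlapped at either time, and 3 D7 peaks with 1 overlapped at 4 h and 0 at 24 h. PKNOX2 had 8 DMSO peaks in each clone, with 5 and 4 overlapped in A2 and 8 and 4 in D7. CDX1 kept its 2 peaks in each treated library, and CDX2 and CDX4 had no RAD21 peak.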

How the data were processed

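ChIP-seq peak lists of 12 libraries were used; 10 inputs without a list were not analysed here. Per the submitters' processing notes, the tools included BWA, Picard, SAMtools, bedtools, deepTools and MACS2, and the builds hg38 and mm10; roles and versions are not given there. Per the labels, RAD21 and PDS5A libraries carried about 10% mouse NIH/3T3 chromatin as spike-in; no spike-in factor was used, so a change in total occupancy that leaves peak calls in place is not seen. CTCF was size-selected and prepared with another kit, and HA chromatin had an added protein crosslinker. Peaks were called per library, per the names in the deposited files, at a q of 0.001 for CTCF and 0.01 for the others, so CTCF was called more strictly.

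The deposited signal column is a fold enrichment, a ratio over local background. The deposited score column is 10 times the −log10 q cut to a whole number, apart from 5 peaks of 1 list, and the deposited −log10 p-value and −log10 q-value columns were used as given. The last deposited column gives the summit offset. Lists held 0 duplicated and 0 overlapping peaks.

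Summits in the windows were selected and peaks compared by overlap of at least 1 bp (Python 3.11.15, pandas 2.3.3, numpy 2.4.6, scipy 1.17.1). Pileup and local background were solved from fold and −log10 p under the Poisson model of MACS2; all of 1000 checked peaks gave whole pileups (within 0.001) in 11 lists and 0% did in HA. The scripts were tested on simulated data. With 1 library per group there is no test; shares carry 95% Wilson intervals. Sites named are those in the spans with CTCF or with RAD21 in both DMSO lists, the strongest flank sites, WAPL sites, sites lost or gained in dTAGV-1 and the highest fold of each RAD21 list; flank sites taken for their CTCF fold alone were limited to 2 a cluster, and sites in small counts were named as well. The members, lists and comparisons were chosen with earlier results of these data known. Some items are not reported here. The splits at 50% and 10% by fold were added after seeing the data. Alternatives were a −log10 q of at least 10, lists of equal length, flanks of 50 kb or none, summits within 200 bp, 50% overlap and the upper 50% of the CTCF list.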

Additional observations from a re-analysis of the deposited data

Results flagged for a closer look

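At 4 h in dTAGV-1 the number of RAD21 peaks in the HOX windows moved to opposite sides of the DMSO number in the clones, with a ratio of 0.813 in clone A2 (26 against 32 peaks) and 1.06 in clone D7 (33 against 31). Each clone had 1 library per condition and the difference was not tested. The contrast was not kept in every setting: with lists of equal length the ratio was 1.00 in clone A2 (26 against 26) and 1.03 in clone D7 (32 against 31), and with a −log10 q of at least 10 it was 0.793 and 1.00.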

How the results depend on the processing

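Of 14 results recomputed under the alternatives, 10 were shares, and 50 of their 63 alternative values stayed within the Wilson interval of the share reported. The other 4 were peak number ratios, which carry no interval, and none of their 16 values differed from the reported one by over 1.5 times. The share of clone A2 DMSO RAD21 peaks overlapped in dTAGV-1 was 92.3% at 4 h and 92.6% at 24 h with lists of equal length (all peaks 87.5% and 79.3%). Without flanks, retention at 4 h was 90.5% (clone A2) and 100% (clone D7), the share of RAD21 peaks at CTCF was 100% in both clones, and the share of STAG2 peaks on STAG1 was 100%. When only peaks with a −log10 q of 10 or more were used, the share of clone A2 RAD21 peaks at CTCF was 100% and of PDS5A peaks on RAD21 89.7%. With the upper 50% of the CTCF list, 81.3% (clone A2) and 77.4% (clone D7) of RAD21 peaks lay at CTCF, and 82.8% of CTCF peaks met RAD21 in clone D7; with lists of equal length the last was 79.4%. The peak number ratio at 4 h ran from 0.793 to 1.00 in clone A2 and from 1.00 to 1.16 in clone D7, so the clones no longer stood on opposite sides of 1 with lists of equal length (1.00 and 1.03) or at a −log10 q of 10 or more (0.793 and 1.00). Fewer peaks enter each of these alternatives. No paired analysis was possible because each group has 1 library. A site is called by a threshold, so a lost call is not a measured absence of the protein. The peak at HOXD8 to HOXD4 apart, lost or gained peaks had pileups of 13 to 46 fragments in the library of the pair that held them. Some of these sites had more in other libraries, such as 87 at 41715 bp outside HOXB1 in clone A2 at 24 h. With the same peak left out, the −log10 q of lost or gained peaks ran from 2.06 to 32.4. The lowest lay between HOXD9 and HOXD8 (clone D7 at 4 h) and the highest 41715 bp outside HOXB1 (clone A2 in DMSO). The lowest values in these full lists were 2.00 and 2.01, so only the low end of the range lies near what could be called. The part of the threshold in the other losses and gains was not tested.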
